A study of Mus musculus with 12 samples.

Results

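The genes described here encode histone variants and the chaperone proteins that place them in chromatin, together with a heterochromatin protein, the product of *Cbx5*. They were chosen by name because they are tied to DEK as a histone chaperone: *Daxx*, *Atrx*, *Hira*, *Asf1a*, *H3f3a*, *H3f3b*, *H2afy*, *H2afz*, *H1f0* and *Cbx5*. Ensembl IDs were matched to the names of GENCODE M21, and 9 of the 10 genes had a row among the 26409 genes of the deposited table. *H1f0*, the gene of the linker histone H1.0, was not matched and was not analysed here. All 9 listed genes were among the 18197 genes tested, after a floor of 0.1 TPM on the mean over all libraries.

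Hippocampal RNA of 12 mice was sequenced, with 3 libraries each of female WT, male WT, female *Dek* cKO and male *Dek* cKO animals. The *Dek* cKO mice came from a *Dek* allele with loxP sites around exons 3 and 4, on a C57Bl/6 background, after crosses to CMV-Cre mice. CMV-Cre acts in the whole body, the deletion passed through the germline and the transgene was then bred out, so every cell type carries it and no group is a model of loss in neurons alone. The WT mice carried no deletion, all mice were 6 to 12 months old, and the tissue was taken by microdissection after behavioral testing. RNA was selected by its poly-A tail.

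DNA in the nucleus is wrapped around histones, and most histones are made while DNA is copied. Neurons no longer divide and replace their histones with variants that can be put in at any time. H3.3 is the main such variant of histone H3, and separate chaperone systems carry it: HIRA with UBN and CABIN1 proteins, supplied by ASF1A, serves active genes, while DAXX with the remodeler ATRX serves silent repeats and telomeres. DEK is an abundant chromatin protein reported to bind H3.3 and to limit where it is deposited, and to bind HP1α, the *Cbx5* product, at heterochromatin.

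The same H3.3 protein is encoded by *H3f3a* (chromosome 1 of GRCm38, 180800832 to 180813943, minus strand) and *H3f3b* (chromosome 11, 116021912 to 116027962, minus strand). Their coding sequences show how far these genes can be told apart in RNA, which every comparison of their levels below depends on. Over the 411 coding bases, 95 differed, and none of these changed the encoded amino acid in the 83 codons concerned. Of the differing bases, 81 were at the third codon position, 14 at the first and 0 at the second. A stretch of 90 coding bases, 241 to 330 of each coding sequence and 5′ to 3′ on the coding strand, is printed from the GENCODE M21 transcripts, with the 21 bases that differ in capitals:

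H3f3a, chr1:180803158-180810158 of GRCm38, minus strand, 2 exons joined: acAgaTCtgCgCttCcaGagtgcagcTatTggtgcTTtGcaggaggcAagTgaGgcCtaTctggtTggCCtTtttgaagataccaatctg

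H3f3b, chr11:116023488-116023666 of GRCm38, minus strand, 2 exons joined: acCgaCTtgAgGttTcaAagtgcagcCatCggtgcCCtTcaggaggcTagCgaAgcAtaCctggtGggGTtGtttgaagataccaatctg

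The longest run shared by both coding sequences was 23 bases, and no stretch of 31 bases occurred in the annotated transcripts of both genes. Some of their sequence did occur in other genes. Of the distinct 31-base stretches of *H3f3a*, 17.5% were found in transcripts of other genes, most of all in the H3.3 copy *H3f3c*, and for *H3f3b* it was 11.2%. *H2afz* shared 18.8%, nearly all with the pseudogene *Gm8203*. *Hira* shared 43.1% with the read-through transcript *Gm28539*, which spans it on the same strand and has no row of its own in the table. *Daxx*, *Atrx*, *Asf1a*, *H2afy* and *Cbx5* each shared under 1%. How reads in shared sequence were divided is not stated, so the values of *Hira*, *H3f3a*, *H3f3b* and *H2afz* are less certain than those of the other genes.

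All levels are TPM, a unit that takes transcript length and library size into account, and column totals were between 825750 and 845553. These totals are below the full sum of TPM in a library, so the deposited values leave out part of the quantified transcripts. *Dek* had 44.2 to 51.9 TPM in the 6 WT libraries and 5.55 to 9.25 TPM in the 6 *Dek* cKO libraries, without overlap. The libraries labelled female cKO replicate 3 and male cKO replicate 1 carried the Y-linked expression of the other sex, and both were kept in the groups of their labels. The 3 female WT libraries have a name prefix of their own, so prefix and group cannot be told apart in comparisons with female WT mice. In the libraries, 0 of 57 marker genes of hippocampal and neighbouring cell types was at 0, with neuronal markers summing to 2642 to 2959 TPM and those of the choroid plexus, which adjoins the hippocampus, to 39.7 to 4386 TPM. *Mag*, an oligodendrocyte marker, was at only 0.00237 TPM in male WT replicate 2. Oligodendrocyte markers summed to 2215 TPM in that library and to 2508 to 4629 TPM in the others. Markers of proliferating cells summed to only 3.76 to 10.6 TPM.

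Across the 12 libraries the genes spanned a wide range of levels. *H3f3a* was highest, with a mean of 272 ± 24.5 TPM (SD, n = 12), and lay above every other gene of the group in all 12 libraries. *H2afz*, which encodes the H2A variant H2A.Z found beside gene starts, followed with 183 ± 8.52 TPM, and *H3f3b* had 175 ± 21.7 TPM. These last 2 did not separate, since *H2afz* was the higher of them in 9 of 12 libraries. *H2afy*, the gene of macroH2A1, a large H2A variant of repressed chromatin, had 104 ± 5.94 TPM. *Cbx5* and *Atrx* were at nearly the same level, 88.0 ± 17.5 and 87.6 ± 6.84 TPM, and *Cbx5* was above *Atrx* in 3 of 12 libraries. Among the chaperones, *Hira* had 40.2 ± 3.40 TPM, *Daxx* 18.5 ± 1.60 TPM and *Asf1a* 7.07 ± 0.908 TPM, with this order in all 12 libraries.

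**Figure D1:**
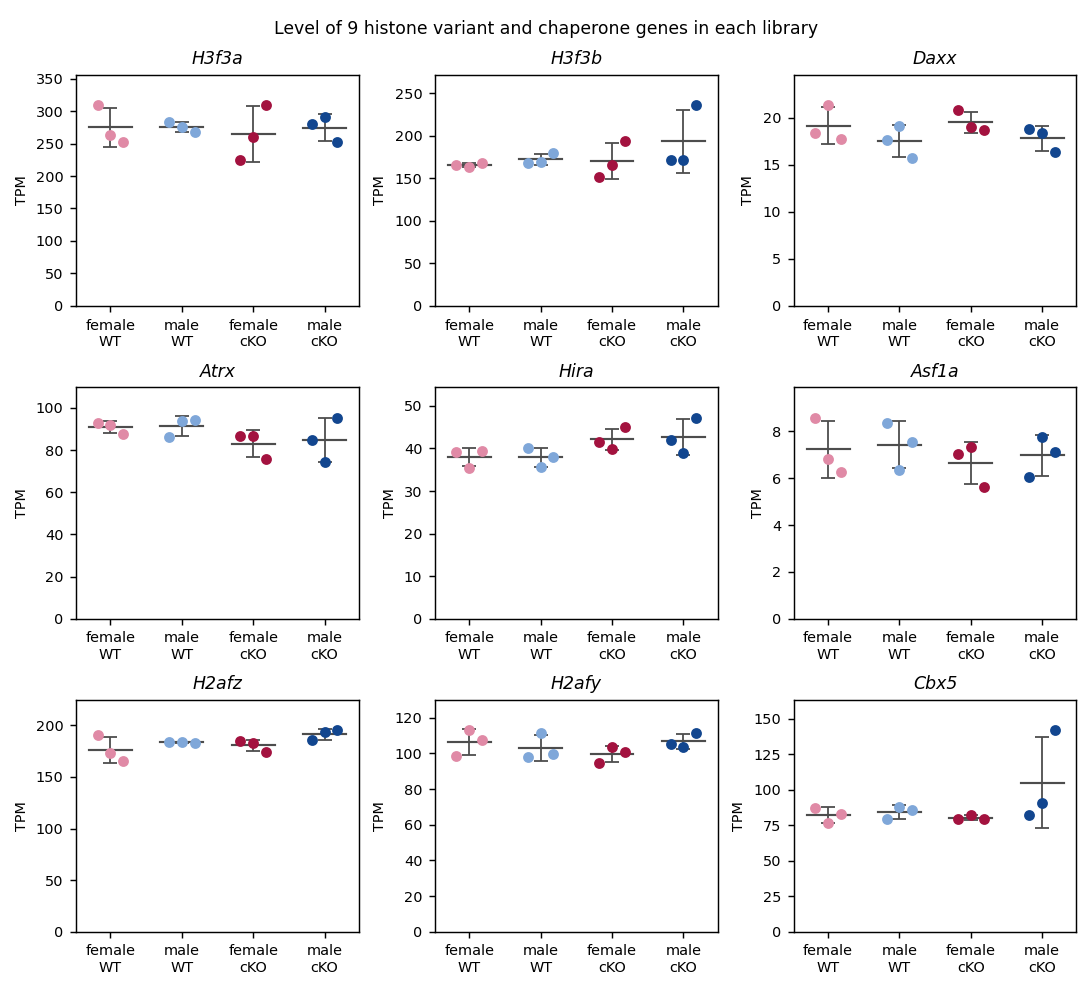
TPM of 9 genes in each of the 12 libraries, 1 panel per gene, each with its own axis from 0. Points are libraries, the long line is the group mean and the bars are 1 SD (n = 3). The 6 WT and the 6 *Dek* cKO points overlap in every panel, *Hira* is mostly higher and *Atrx* mostly lower in *Dek* cKO libraries, and 1 male *Dek* cKO library stands apart for *Cbx5* (142 TPM) and *H3f3b* (236 TPM).

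The genes also differed in how steady they were. The coefficient of variation over all 12 libraries was 4.66% for *H2afz*, 5.72% for *H2afy*, 7.81% for *Atrx*, 8.46% for *Hira*, 8.66% for *Daxx* and 8.99% for *H3f3a*. These 6 values lie below the median of 9.44% over the 10856 genes whose mean reached 5 TPM. *H3f3b* (12.4%) and *Asf1a* (12.9%) lay above that median, and *Cbx5* (19.9%) lay above its upper quartile of 13.6%. *Cbx5* and *H3f3b* had their highest values, 142 and 236 TPM, in male cKO replicate 3. In the 6 WT libraries alone they had 83.4 ± 4.67 and 169 ± 5.59 TPM (SD, n = 6). Their spread over all 12 libraries therefore lay mostly among the *Dek* cKO libraries.

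The first question was whether any of these genes changed with the loss of *Dek* in both sexes together. Differences were tested with limma on log2(TPM + 0.1), and a gene was called at a Benjamini-Hochberg adjusted p under 0.05 over all genes tested with a fold change over 1.2. Of the 9 genes, 0 were called, in a comparison where 27 of all genes tested were called, or 0.148%. At an unadjusted p under 0.05 there was 1 of 9, *Hira*, against 1208 of all genes, or 6.64%. Of the 9 genes, 5 had higher and 4 lower estimates in *Dek* cKO mice, with a median log2 fold change of 0.03 against 0.02 over all genes tested. None of the 9 genes separated the genotypes completely, with no overlap between the 6 *Dek* cKO and the 6 WT values, a pattern that 0.676% of all genes tested had.

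*Hira* encodes the chaperone that deposits H3.3 at active genes. Its level in WT libraries ran from 35.5 TPM over a median of 38.6 to 40.0 TPM, and in *Dek* cKO libraries from 38.9 TPM over a median of 41.7 to 47.2 TPM. In 4 of 6 *Dek* cKO libraries the value was above the highest WT value, and the remaining ones lay within the WT range. The log2 fold change was 0.16 (standard error 0.05, 95% interval 0.04 to 0.28), a fold of 1.12, with an unadjusted limma p of 0.0125 that did not pass adjustment (adjusted p = 0.584). Across the alternative settings and with each library left out, the estimate stayed between 0.13 and 0.18, with adjusted p-values between 0.359 and 0.956. *Hira* shares much of its sequence with *Gm28539*, and reads of the one cannot be told apart from reads of the other in that sequence.

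The partners of HIRA were examined as fixed names rather than for their values. *Ubn2*, a subunit of the HIRA complex, had 21.6 ± 1.84 TPM in WT and 21.9 ± 0.821 TPM in *Dek* cKO libraries (SD, n = 6). *Cabin1*, another subunit, had 23.5 ± 1.77 and 23.3 ± 2.11 TPM, a log2 fold change of -0.01 (95% interval -0.16 to 0.14). *Ubn1* was low and uneven, from 0.234 to 2.22 TPM in WT and from 0.277 to 1.54 TPM in *Dek* cKO libraries, and its log2 fold change of -0.65 had an interval from -1.68 to 0.37. *Asf1a*, which hands H3 and H4 to HIRA, had 6.26, 7.19 and 8.58 TPM as lowest, median and highest WT values and 5.63, 7.07 and 7.74 TPM in *Dek* cKO libraries. The groups of *Asf1a* overlapped in part, with 2 of 6 *Dek* cKO values below the WT range (log2 fold change -0.10, 95% interval -0.33 to 0.13, limma adjusted p = 0.931). The WT values of 8.37 and 8.58 TPM lay above the *Dek* cKO range. With single libraries left out, the estimate of *Asf1a* ran from -0.14 (without female WT replicate 3) to -0.05 (without female cKO replicate 3). *Asf1a* made up 88.0% ± 4.97 of the summed *Asf1a* and *Asf1b* TPM in WT and 88.9% ± 3.76 in *Dek* cKO libraries (SD, n = 6), where *Asf1b* is the form of dividing cells.

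*Atrx*, on the X chromosome (105797615 to 105929403), encodes the remodeler that works with DAXX. It had 86.2, 92.5 and 94.3 TPM as lowest, median and highest values in WT libraries and 74.5, 85.7 and 95.4 TPM in *Dek* cKO libraries. In 3 of 6 *Dek* cKO libraries *Atrx* lay below the lowest WT value and in 1, male cKO replicate 3, it lay above the highest. The log2 fold change was -0.12 (standard error 0.06, 95% interval -0.25 to 0.00), with an unadjusted limma p of 0.0540 and an adjusted p of 0.762. Without any 1 library it ran from -0.16 (without male cKO replicate 3) to -0.09 (without male cKO replicate 2).

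*Daxx*, the H3.3 chaperone itself, had an estimate smaller in size than that of *Atrx*, without a test between them. It had 15.8, 18.0 and 21.4 TPM as lowest, median and highest values in WT and 16.3, 18.7 and 20.8 TPM in *Dek* cKO libraries, so every *Dek* cKO value lay within the WT range. The log2 fold change of *Daxx* was 0.03 (95% interval -0.13 to 0.19, limma adjusted p = 0.982), with a range from -0.01 (without male WT replicate 3) to 0.07 (without female WT replicate 2) when 1 library was omitted. The ratio of *Atrx* to *Daxx* TPM was 5.01 ± 0.545 in WT and 4.53 ± 0.682 in *Dek* cKO libraries (SD, n = 6), which overlapped. It was 4.05 to 4.55 in 5 *Dek* cKO libraries and 5.85 in male cKO replicate 3.

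**Figure D2:**
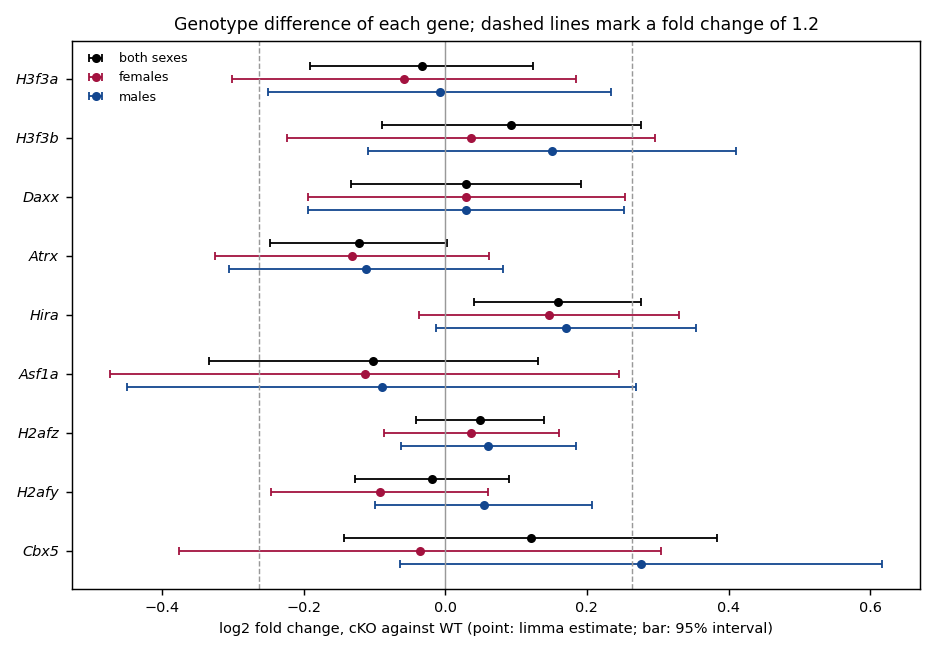
Log2 fold change of each of 9 genes between *Dek* cKO and WT libraries, with 95% intervals from limma, for both sexes (n = 6 per genotype) and within each sex (n = 3 per group). The dashed lines mark a fold change of 1.2. In both sexes together the interval of *Hira* (0.04 to 0.28) alone lies above 0, and the widest is that of *Cbx5*.

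The substrate genes of these chaperones were next. *H3f3a* had 252, 272 and 309 TPM as lowest, median and highest WT values and 225, 270 and 309.7 TPM in *Dek* cKO libraries. Its medians nearly coincided, and the *Dek* cKO range was the wider (log2 fold change -0.03, 95% interval -0.19 to 0.12, limma adjusted p = 0.979). Omission of 1 library moved the estimate of *H3f3a* between -0.07 (without female cKO replicate 3) and 0.02 (without female cKO replicate 1). *H3f3b* had 163, 168 and 179 TPM in WT and 152, 172 and 236 TPM in *Dek* cKO libraries. Its WT values lay close together, while male cKO replicate 3 (236 TPM) and female cKO replicate 3 (194 TPM) exceeded them and female cKO replicate 1 (152 TPM) was below them. The log2 fold change of *H3f3b* was 0.09 (95% interval -0.09 to 0.28, limma adjusted p = 0.917), and became 0.01 without male cKO replicate 3 and 0.14 without female cKO replicate 1.

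Added together, both genes gave 444 ± 19.2 TPM of H3.3 transcript in WT and 451 ± 45.7 TPM in *Dek* cKO libraries (SD, n = 6). *H3f3a* supplied 61.9% ± 1.92 of it in WT and 59.8% ± 4.17 in *Dek* cKO libraries. This share was between 59.7% and 65.1% in 11 libraries and 51.6% in male cKO replicate 3. The transcripts of replication-dependent H3 genes lack a poly-A tail, and the 6 that are listed summed to 7.91 ± 2.14 TPM in WT and 6.54 ± 1.57 TPM in *Dek* cKO libraries, so these libraries do not measure the balance between H3.3 and replicative H3.

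**Figure D3:**
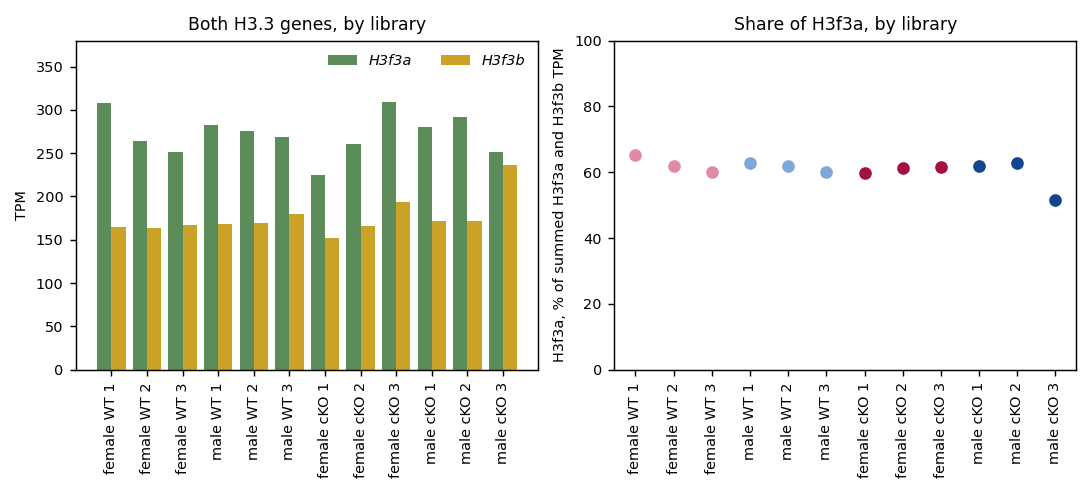
Left, TPM of *H3f3a* and *H3f3b* in each of the 12 libraries as bars from 0. Right, the share of *H3f3a* in their summed TPM in percent, 1 point per library, between 59.7% and 65.1% in 11 libraries and 51.6% in male cKO replicate 3, the only library in which the bars come close.

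The H2A variants showed the narrowest spread. *H2afz* had 165, 183 and 190.3 TPM as lowest, median and highest WT values and 175, 185 and 195 TPM in *Dek* cKO libraries. Only 2 *Dek* cKO libraries, both male, exceeded the WT range (log2 fold change 0.05, 95% interval -0.04 to 0.14, limma adjusted p = 0.916, and 0.02 to 0.07 with 1 library omitted, the lowest without female WT replicate 3). *H2afz* held 83.9% ± 1.76 of the summed TPM of *H2afz* and *H2afv*, the other H2A.Z gene, in WT and 84.0% ± 1.80 in *Dek* cKO libraries (SD, n = 6). *H2afy* (chromosome 13, 56073619 to 56136361) lies 8.97 Mb from *Dek* on the same chromosome. It had 97.8, 104 and 113 TPM in WT and 94.5, 104 and 111 TPM in *Dek* cKO libraries, with medians that coincided and 1 *Dek* cKO value below the WT range. Its log2 fold change was -0.02 (95% interval -0.13 to 0.09, limma adjusted p = 0.982), and it ran from -0.04 (without male cKO replicate 3) to 0.01 (without female cKO replicate 1) with 1 library omitted. *H2afy* made up 88.6% ± 0.840 of the macroH2A transcripts, summed with *H2afy2*, in WT and 88.2% ± 1.52 in *Dek* cKO libraries.

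*Cbx5* encodes HP1α, a reader of methylated H3 in heterochromatin. It had 76.7, 84.5 and 88.1 TPM as lowest, median and highest WT values and 79.2, 82.4 and 142 TPM in *Dek* cKO libraries. A single library, male cKO replicate 3 with 142 TPM, set the *Dek* cKO mean of 92.7 ± 24.5 TPM (SD, n = 6), and the other 5 lay between 79.2 and 91.0 TPM. The log2 fold change was 0.12 (95% interval -0.14 to 0.38, limma adjusted p = 0.924), and -0.01 without that library. *Cbx1* and *Cbx3*, the genes of HP1β and HP1γ, had 37.7 and 135 TPM in male cKO replicate 3 and ranges of 35.4 to 42.1 TPM and 127 to 150.1 TPM over all libraries. *Cbx5* accordingly held 45.1% of the summed TPM of the 3 HP1 genes in male cKO replicate 3 and 30.2% to 32.9% in the remaining 11 libraries.

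Male cKO replicate 3 also stood apart in the summed TPM of astrocyte markers, mostly through *Gfap*. Of these markers 5 of 5 were listed and 0 were at 0. Their sum was 1700 TPM there, 686 to 771 TPM in WT and 652 to 960.0 TPM in the other *Dek* cKO libraries. The markers did not move as one. *Gfap*, a filament protein that reactive astrocytes make in large amounts, had 1267 TPM in this library and 208 to 437 TPM elsewhere, and the water channel *Aqp4* had 99.4 TPM, against 43.3 to 57.3 TPM. *Gja1*, an astrocyte gap junction protein, was at 68.6 TPM, below the 116 to 151 TPM of the other libraries. *Aldh1l1* (27.3 TPM) and *Slc1a3* (237 TPM) lay within the range of the other libraries. The library labelled female cKO replicate 3 held the 437 TPM of *Gfap* and the sum of 960.0 TPM, above the WT maxima of 285 and 771 TPM. Its *H3f3b* (194 TPM) and *Hira* (44.9 TPM) values were the highest after those of male cKO replicate 3. Its *Cbx5* value (79.3 TPM) lay within the WT range. The part of these markers in the values of *Cbx5*, *H3f3b* and *Hira* in either library was not tested. In bulk tissue, a change in the number of cells of a type and in RNA per cell cannot be told apart.

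The size of difference that these libraries leave possible varied between the genes. For 5 of the 9, *Daxx*, *Atrx*, *H3f3a*, *H2afy* and *H2afz*, the whole 95% interval in both sexes together lay within a fold change of 1.2 in either direction. The intervals of *Hira*, *Asf1a*, *H3f3b* and *Cbx5* reached beyond it, and the widest, that of *Cbx5*, ran from a fold of 0.906 to 1.30.

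The second question was whether loss of *Dek* acted on these genes in 1 sex. In females, 0 of the 9 genes were called, with 0.0165% of all genes called, and 0 of 9 had an unadjusted limma p under 0.05, with 5.79% of all genes. The estimates ran from -0.13 for *Atrx* to 0.15 for *Hira* on the log2 scale, with 4 genes higher and 5 lower and a median of -0.04 against 0.01 over all genes. *Hira* had 39.1, 35.5 and 39.4 TPM in female WT and 41.4, 40.0 and 44.9 TPM in female *Dek* cKO libraries. All 3 *Dek* cKO values of *Hira* were above the 3 WT values (log2 fold change 0.15, 95% interval -0.04 to 0.33, limma adjusted p = 0.898). *Atrx* had 93.0, 92.0 and 87.6 TPM in female WT and 86.7, 86.6 and 75.8 TPM in female *Dek* cKO libraries. Here too the groups did not overlap, with all 3 *Dek* cKO values below (log2 fold change -0.13, 95% interval -0.33 to 0.06, limma adjusted p = 0.901). *Hira* and *Atrx* were 2 of 9 genes without overlap between the 3 female values of each genotype, against 12% of all genes tested. The lowest value of *Atrx*, 75.8 TPM, and the highest of *Hira*, 44.9 TPM, belong to the library labelled female cKO replicate 3. That library carried male Y-linked expression, and without it the log2 fold change of *Atrx* was -0.07 and that of *Hira* 0.10. Its omission also moved *H3f3a* from -0.06 to -0.18, then the largest estimate in size of the 9 genes in females. *H3f3b* went from 0.04 to -0.06 and *Asf1a* from -0.11 to 0.00.

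In males, 0 of the 9 genes were called, with 0.0165% of all genes called, and 0 of 9 had an unadjusted limma p under 0.05, with 5.45% of all genes. There were 6 genes with higher and 3 with lower estimates, with a median log2 fold change of 0.05 against 0.02 over all genes. *Hira* had 40.0, 35.7 and 38.0 TPM in male WT and 42.0, 38.9 and 47.2 TPM in male *Dek* cKO libraries. With 2 of the 3 *Dek* cKO values of *Hira* above the highest WT value, the groups overlapped (log2 fold change 0.17, 95% interval -0.01 to 0.35, limma adjusted p = 0.880). *H2afz* had 183, 184 and 183 TPM in male WT and 186, 194 and 195 TPM in male *Dek* cKO libraries. Its groups did not overlap, as in 9.75% of all genes tested, and it was the only such gene of the 9 in males (log2 fold change 0.06, 95% interval -0.06 to 0.18, limma adjusted p = 0.919). *Cbx5* had 79.1, 88.1 and 86.0 TPM in male WT and 82.5, 91.0 and 142 TPM in male *Dek* cKO libraries. It had the highest estimate of the 9, a log2 fold change of 0.28 (95% interval -0.06 to 0.62, limma adjusted p = 0.881), which became 0.04 without male cKO replicate 3. *H3f3b*, at 0.15 in males, likewise became 0.00 without it, and *Hira* 0.10. Without male cKO replicate 1, the library with female expression of Y-linked genes, the log2 fold change in males was 0.43 for *Cbx5*, 0.23 for *H3f3b*, 0.18 for *Hira* and 0.08 for *H2afz*, with limma adjusted p-values of 0.620, 0.677, 0.663 and 0.737. *H3f3b* was at 0.23 without male cKO replicate 2 too.

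Whether the genotype effect differed by sex was tested directly as an interaction, female minus male. For this term 0 of the 9 genes were called, with 0% of all genes called, and 0 of 9 had an unadjusted limma p under 0.05, with 4.23% of all genes. *Cbx5* had the lowest estimate, -0.31 (95% interval -0.79 to 0.17, limma adjusted p = 0.966), which was -0.07 without male cKO replicate 3 and -0.46 without both libraries of conflicting sex. *H2afy* was -0.15 (95% interval -0.36 to 0.07) and *H3f3b* -0.11 (95% interval -0.48 to 0.25), or -0.16 and -0.29 without the conflicting libraries. Without male cKO replicate 3 the interaction of *H3f3b* changed sign, to 0.04. The remaining 6 genes had estimates between -0.05 and 0.00 with all libraries. Without the conflicting libraries *H3f3a* was at -0.15, and the others of these ran from -0.08 for *Hira* to 0.07 for *Daxx*.

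In the comparison of the WT sexes, 0 of the 9 genes were called, with 0% of all genes called, and 0 of 9 had an unadjusted limma p under 0.05, with 3.63% of all genes. *Daxx* had the largest estimate in size, with 18.4, 21.4 and 17.7 TPM in female WT and 17.6, 19.1 and 15.8 TPM in male WT libraries. The groups overlapped and the log2 fold change, male against female, was -0.13 (95% interval -0.35 to 0.09). *Atrx*, although X-linked, differed by 0.01 on the log2 scale (95% interval -0.19 to 0.20), with 90.9 ± 2.91 TPM in female and 91.4 ± 4.56 TPM in male WT libraries (SD, n = 3).

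The wider families to which these genes belong were described by fixed lists. In the comparison of both sexes 0 genes of any list were called, with 0.148% of all genes called. An unadjusted limma p under 0.05 was reached by 6.64% of all genes tested, the share to set beside each count below. Among 10 genes of H3.3 deposition, which include the 4 chaperone genes above, 1 had an unadjusted limma p under 0.05, *Hira*, and the median log2 fold change was 0.00 against 0.02 over all genes tested. Of 26 other histone chaperones, 2 had an unadjusted p under 0.05, both higher. *Anp32e*, which removes H2A.Z from chromatin, had 72.2 ± 2.29 TPM in WT and 78.4 ± 3.92 TPM in *Dek* cKO libraries (SD, n = 6; log2 fold change 0.12, 95% interval 0.03 to 0.20, limma adjusted p = 0.595). *Nap1l1*, an H2A-H2B chaperone that was named after its values were seen, had a log2 fold change of 0.22 (95% interval 0.03 to 0.40, limma adjusted p = 0.664). *Chaf1a*, a subunit of the CAF-1 chaperone of replicating cells, had only 2.01 ± 0.189 TPM in WT and 2.08 ± 0.310 TPM in *Dek* cKO libraries. *Ssrp1* and *Supt16*, which encode the subunits of the FACT chaperone, had log2 fold changes of 0.07 (95% interval -0.02 to 0.16) and 0.06 (95% interval -0.05 to 0.17).

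Of 22 genes of the complexes that exchange H2A.Z, 0 had an unadjusted limma p under 0.05, against 6.64% of all genes tested. Their median log2 fold change was 0.00. *Srcap*, the catalytic subunit of one of them, had the lowest estimate, -0.26 (95% interval -0.94 to 0.41), with levels as uneven as 0.975 to 2.85 TPM in WT libraries. Of 15 tested replication-independent histone variants, 1 had an unadjusted p under 0.05, *Hist3h2a*, at -0.15 (95% interval -0.29 to -0.01, limma adjusted p = 0.704, named after its values were seen). In the same list *H2afx*, the variant phosphorylated at DNA breaks, was at -0.05 (95% interval -0.18 to 0.09), and *H1fx*, the gene of linker histone H1.10, at -0.12 (95% interval -0.29 to 0.05). *H2afv* and *H2afy2*, the partners of *H2afz* and *H2afy*, were at 0.03 each.

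Of 26 heterochromatin genes, with a median log2 fold change of 0.05, 2 had an unadjusted limma p under 0.05, against 6.64% of all genes tested. These, named after their values were seen, were *Setdb1*, an H3 lysine 9 methyltransferase (0.10, limma adjusted p = 0.710), and the remodeler *Smarcad1* (-0.25, limma adjusted p = 0.664). *Morc3*, with the highest estimate, 0.96, ran from 0.244 to 6.56 TPM in WT and from 0.0616 to 7.15 TPM in *Dek* cKO libraries and had an interval from -1.23 to 3.15. Among the fixed names of the list, *Hp1bp3* was at 0.03 (95% interval -0.05 to 0.11) and *Cbx1* at 0.02 (95% interval -0.08 to 0.13), while *Cbx3* was at -0.06 (95% interval -0.15 to 0.04). Of 16 interaction partners of DEK, 1 had an unadjusted p under 0.05, *Rnps1*, a splicing factor named after its values were seen (0.11, limma adjusted p = 0.568). Of 56 genes named as replication-dependent histones, 39 passed the filter and 6 reached a mean of 10 TPM, with 2 at an unadjusted p under 0.05, both lower. One of these is *Hist3h2a*, which by its name falls in this list as well as in that of replication-independent variants.

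**Figure D4:**
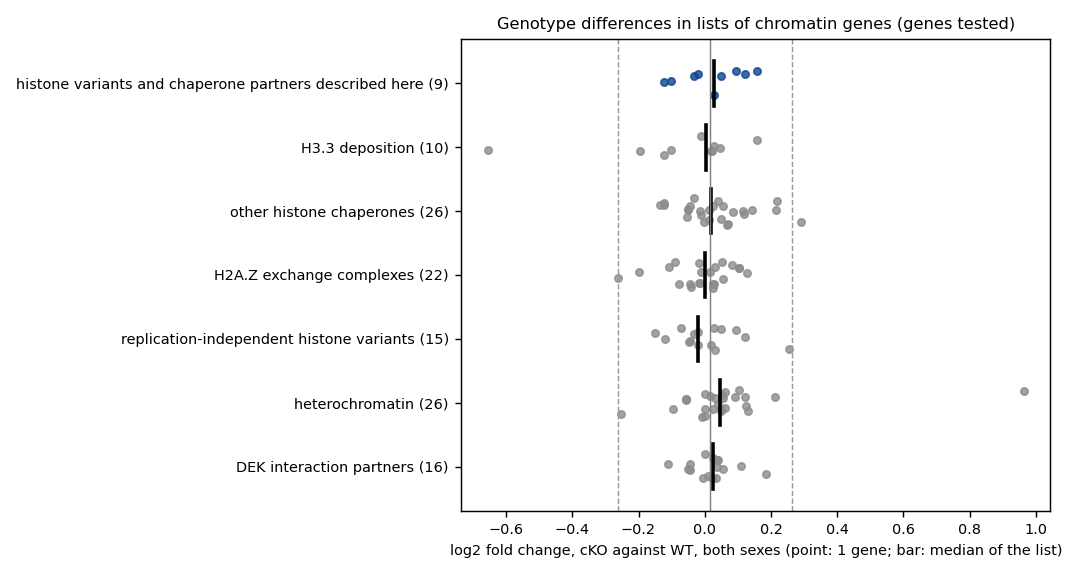
Log2 fold change between *Dek* cKO and WT libraries of both sexes for the genes tested of the 9 genes described here (top row) and of 6 wider lists. Each point is a gene, the black bar is the median of the list, the solid line is the median of all genes tested and the dashed lines mark a fold change of 1.2. All 9 points of the top row lie between the dashed lines, from -0.12 to 0.16, and the list medians lie between -0.02 and 0.05.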

How the data were processed

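The genes and lists were chosen with earlier results of these data known. The deposited values, a TPM per gene and library, are the authors' own. The submitters' processing notes name kallisto and mm10, whereas the study's methods describe trimming, removal of ribosomal reads, STAR alignment to GRCm38 and Salmon, and which of them wrote the table is not stated. TPM keeps no read counts, so counting error is not given and the study's DESeq2 test could not be used. The study's methods state a read depth per sample, which the TPM values do not show. Of 26409 IDs, 25245 matched GENCODE M21. At most 0.006% of values were identical between 2 libraries. Labels do not state that replicates are separate animals, while the study gives N = 3 for each genotype and sex. If any libraries shared an animal, p-values would measure only the spread between these libraries.

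Genes whose mean reached 0.1 TPM were tested as log2(TPM + 0.1) with limma 3.58.1 (R 4.3.3, trended prior variance, two-sided) and Benjamini-Hochberg adjustment. Both sexes were compared as 2 groups of 6 libraries, and other comparisons as contrasts of 1 fit of 4 groups of 3. The fold change scale understates changes of low genes. The steps were tested on simulated data. Shared sequence was counted as distinct 31-base stretches of annotated transcripts. All 10 genes, *Dek* and 17 fixed partners were to be named whatever their values, and 1 partner is not reported here. From the lists, only called genes and those with the lowest or highest estimates were to be named, unless stated. Several of these extremes are not reported here, so the genes named do not always mark the ends of their lists. Alternatives were 0.5 or 1 TPM added, no filter or a mean of 1 TPM, median ratio or quantile scaling, a replicate block, no trend, sex as a covariate, omission of the female WT libraries or of both libraries of conflicting sex, and omission of each library.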

Additional observations from a re-analysis of the deposited data

Results flagged for a closer look

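In groups of 6 libraries, a value was marked when its gap to the nearest of the others exceeded Dixon's critical share of the group's range. Chance marks about 1 in 20 groups. Many genes, shares and ratios were examined, and some were computed from the same values, so the number of marks is not a test. Among *Dek* cKO libraries, male cKO replicate 3 accounted for 5 of the marks: *Cbx5* at 142 TPM, the share of *Cbx5* among the HP1 genes at 45.1%, the share of *H3f3a* in H3.3 transcript at 51.6%, the ratio of *Atrx* to *Daxx* at 5.85 and *Ubn1* at 1.54 TPM, against 0.277 to 0.585 TPM in the other *Dek* cKO libraries. The ratio of *Atrx* to *Daxx* in that library lies within the WT range of 4.30 to 5.99. Its astrocyte markers summed to 1700 TPM, of which *Gfap* alone made up 1267 TPM, and their part in these values was not tested.

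The remaining marks were spread over other libraries. *Cbx3* was high in male cKO replicate 2, at 150.1 TPM against 127 to 135 TPM. *Ssrp1* was low in the library labelled female cKO replicate 3, at 79.7 TPM against 87.0 to 90.2 TPM, and high among WT libraries in male WT replicate 2, at 88.5 TPM. *H3f3b* was high among WT libraries in male WT replicate 3, at 179 TPM against 163 to 169 TPM. *Srcap* was low in female WT replicate 1, at 0.975 TPM against 2.40 to 2.85 TPM.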

How the results depend on the processing

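In every comparison and under every alternative, limma called 0 of the 9 genes. The count over all genes tested did move. For both sexes together it was 27, with 17 without a filter, 36 without a trend, 10 without the 3 female WT libraries and 13 to 27 when 1 library was left out (13 without female cKO replicate 2, 14 without female cKO replicate 1 or female WT replicate 1, 16 without the library labelled male cKO replicate 1). In females it was 3, with 7 without a trend, 6 without both libraries of conflicting sex and 1 to 8 when 1 library was left out (8 with female WT replicate 1 omitted, 5 with female cKO replicate 3 omitted and 1 with female cKO replicate 1 or 2 omitted). In males it was 3, with 6 without a filter, without a trend or without both libraries of conflicting sex, and 2 to 7 when 1 library was left out (7 without male WT replicate 3, 6 without female WT replicate 1). For the interaction it was 0, with 2 without a filter or a trend, 3 without both conflicting libraries and 0 to 1 when 1 library was left out. Between WT sexes it was 0, with 3 without a filter or a trend, 4 without both conflicting libraries and 0 to 5 when 1 library was left out (5 without female WT replicate 1). The cause of these shifts was not tested.

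A replicate block, which pairs libraries of a sex by number, gave 3 genes for both sexes and 1 within each sex. Same-numbered libraries did not deviate together (Pearson correlations across genes between -0.04 and 0.04 over 6 pairs). Pairs of unlike number ran from -0.08 to 0.04. Whether a number marks a shared batch is not stated, and these correlations cannot decide it. Of the 9 genes, *Atrx*, *Hira*, *Asf1a*, *H3f3b* and *H2afz* kept their sign for both sexes in all 22 settings, while *Cbx5* did in 21, *Daxx* and *H3f3a* in 20 and *H2afy* in 19. The interaction of *H3f3b* was -0.29 without both conflicting libraries, 0.04 without male cKO replicate 3 and -0.11 with all libraries.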
